A study of Mus musculus with 4 samples.

Results

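The 9 genes described here encode components of the phosphoinositide 3-kinase (PI3K) and AKT pathway, and they were compared between plasmacytoid dendritic cells (pDCs) with and without the receptor tyrosine kinase Flt3. They comprised the catalytic subunit genes Pik3ca, Pik3cb, Pik3cd and Pik3cg, the regulatory subunit genes Pik3r1 and Pik3r5, the lipid phosphatase gene Inpp5d, and the kinase genes Akt1 and Akt2. They were chosen by gene symbol among the 19938 genes read by a probe set with a single symbol, and all 9 were measured. The pDCs came from mouse spleens at steady state, 2 samples from wild-type (WT) mice and 2 from Flt3 knockout (Flt3 KO) mice, each on its own array. The labels give no strain, age or further treatment, do not describe the knockout allele or the sorting gate, and call the samples of a genotype biological replicates without saying whether each was 1 animal or a pool. The p-values therefore measure the spread between these samples.

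Class I PI3Ks phosphorylate the membrane lipid PIP2 to PIP3 downstream of receptor tyrosine kinases, immune receptors and G protein-coupled receptors. PIP3 recruits AKT kinases and other proteins with PIP3-binding domains to the membrane. AKT in turn restrains FOXO transcription factors and the TSC complex, and so favours mTOR signalling, growth and survival. Flt3 is one of the receptors that feed into this pathway, and in dendritic cell development its ligand is known to act partly through PI3K and mTOR. Arrays measure RNA and give no direct view of PIP3 or of kinase activity.

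The targeted gene separated the genotypes. Flt3 had log2 intensities of 10.71 and 10.77 in the WT arrays, against 8.46 and 8.61 in the Flt3 KO arrays, a difference of −2.21 (SE 0.066, limma adjusted p = 7.4e-05); with WT replicate 1 or 2 left out its adjusted p was 0.063 or 0.074. Of the defining pDC genes, Siglech, Bst2, Tcf4 and Irf8 all had log2 intensities between 11.96 and 12.93 on each array, against a median of 5.90 over all genes. Irf8 was lower in Flt3 KO, with a log2 difference of −0.31 (limma adjusted p = 0.022). This brightness does not by itself check the lineage label. Some conventional dendritic cell genes were also bright, such as Sirpa (11.05 to 11.20), while 4 of 14 measured lay below that median in both genotypes. The arrays had median intensities of 55.1 to 57.2, and no detection call accompanied the values. All differences below are on the log2 scale, Flt3 KO minus WT, and SE is limma's moderated standard error.

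None of the 9 genes passed the threshold, an adjusted p under 0.05 over all 19938 genes in limma, where 476 genes or 2.39% passed. At an unadjusted p under 0.05 there were 2 of 9, Akt2 and Pik3cb, against 17.1% of all genes. The differences were small in both directions. The largest was that of Pik3cb, 0.17 or 1.12-fold, and the smallest that of Inpp5d, 0.040. The median absolute difference was 0.10, beside 0.097 over all genes. Signal was higher in Flt3 KO for 7 of the 9 genes, where 49.6% of all genes were higher, and lower for Akt1 and Pik3ca. The median of the 9 differences was 0.079, beside −0.0010 over all genes and −0.048 over the 4214 genes of similar brightness (mean log2 intensity from 7.88 to 10.97), of which 34.7% were higher in Flt3 KO. The values of the genotypes did not overlap for 6 of the 9, a state found in 47.2% of all genes and in 59.3% of genes of that brightness. Of these 6, 4 were higher in Flt3 KO and 2 lower, beside 21.9% and 25.3% of all genes.

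**Figure D1:**
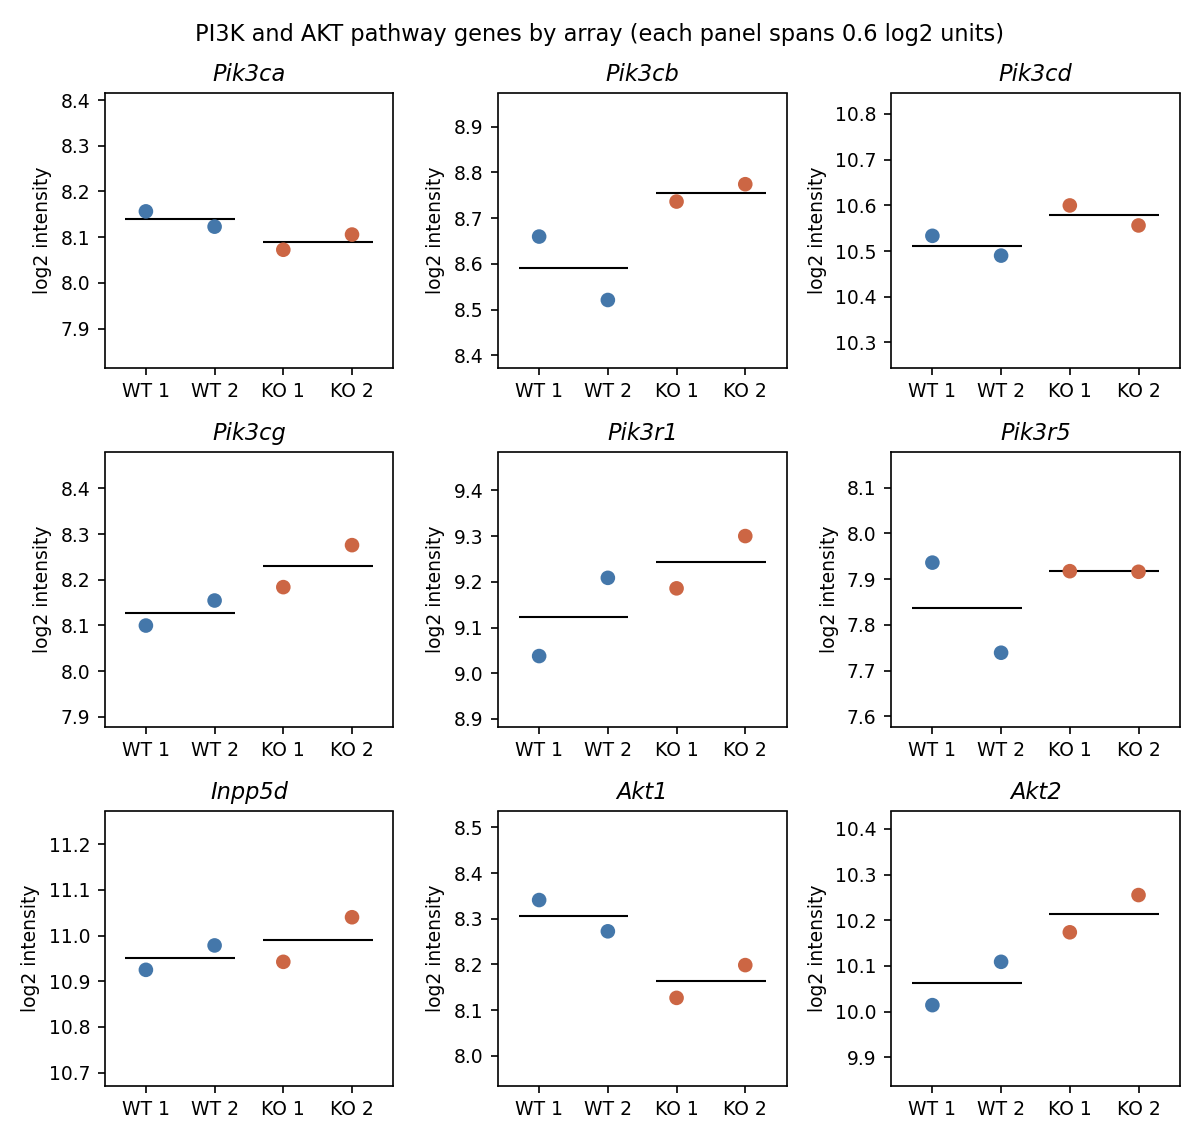
Log2 intensity of each of the 9 genes on the WT arrays (blue, replicates 1 and 2) and the Flt3 KO arrays (orange, replicates 1 and 2), with black lines at the genotype means (n = 2 each). Each panel spans the same range, so that distances can be compared between genes, and the genotypes overlap for Pik3r1, Pik3r5 and Inpp5d.

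Among the catalytic subunits, Pik3ca and Pik3cb encode the broadly expressed p110α and p110β. Pik3ca had log2 intensities of 8.16 and 8.12 in WT, against 8.07 and 8.11 in Flt3 KO. The groups did not overlap but almost touched, and the difference was −0.051 (SE 0.064, limma adjusted p = 0.75). Pik3cb read 8.66 and 8.52 in WT, against 8.74 and 8.77 in Flt3 KO. Both Flt3 KO values lay above both WT values, although the gap between the WT arrays, 0.14, came close to the genotype difference of 0.17 (SE 0.069, limma adjusted p = 0.28). With 1 array left out at a time, the Pik3cb difference ranged from 0.096 without WT replicate 2 to 0.23 without WT replicate 1.

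Pik3cd and Pik3cg encode p110δ and p110γ, the subunits enriched in leukocytes. p110δ serves mainly tyrosine kinase-linked receptors, and p110γ is activated by G protein βγ subunits. Pik3cd had the smallest SE of the 9, with values of 10.53 and 10.49 in WT, against 10.60 and 10.56 in Flt3 KO. All 4 values lay within a narrow band with the Flt3 KO pair on top, and the difference of 0.066 (SE 0.048) had a limma adjusted p of 0.54. Pik3cg gave 8.10 and 8.15 in WT, against 8.18 and 8.28 in Flt3 KO. Its groups also did not overlap, with the higher WT array and the lower Flt3 KO array close together, and the difference was 0.10 (SE 0.068, limma adjusted p = 0.50), or 0.057 without Flt3 KO replicate 2.

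Of the regulatory subunits, Pik3r1 encodes p85α and its shorter forms, which stabilise the class IA catalytic subunits and dock them to phosphotyrosines. Its values were 9.04 and 9.21 in WT, against 9.19 and 9.30 in Flt3 KO. WT replicate 2 lay above Flt3 KO replicate 1, so the groups overlapped, and the difference of 0.12 (SE 0.076, limma adjusted p = 0.48) was smaller than the gap of 0.17 between the WT arrays. It was 0.034 without WT replicate 1, 0.21 without WT replicate 2 and 0.063 without Flt3 KO replicate 2. Pik3r5 encodes p101, a partner of p110γ. It read 7.94 and 7.74 in WT, against 7.92 and 7.92 in Flt3 KO, so that the Flt3 KO arrays were nearly identical and both fell between the WT arrays. The difference was 0.079 (SE 0.083, limma adjusted p = 0.69), and was 0.18 without WT replicate 1 and −0.019, with the sign turned, without WT replicate 2.

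Inpp5d encodes SHIP1, the haematopoietic phosphatase that removes the 5-phosphate of PIP3 and so counters PI3K. Its log2 intensities were 10.93 and 10.98 in WT, against 10.94 and 11.04 in Flt3 KO. The groups overlapped, and the difference of 0.040 (SE 0.052, limma adjusted p = 0.76) was below the gap of 0.098 between the Flt3 KO arrays. It was −0.0092 without Flt3 KO replicate 2, 0.088 without Flt3 KO replicate 1, 0.013 without WT replicate 1 and 0.066 without WT replicate 2.

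The AKT kinase genes had differences of opposite sign, neither past the threshold. Akt1, which encodes the isoform most tied to growth and survival, had values of 8.34 and 8.27 in WT, against 8.13 and 8.20 in Flt3 KO. Both Flt3 KO arrays lay below both WT arrays, with a difference of −0.14 (SE 0.067, limma adjusted p = 0.33). Akt2, best known for its part in insulin-stimulated glucose uptake, had 10.01 and 10.11 in WT, against 10.17 and 10.26 in Flt3 KO. Here both Flt3 KO arrays were the higher ones, with a difference of 0.15 (SE 0.058, limma adjusted p = 0.24), the lowest adjusted p of the 9. Akt2 was the only one of the 9 genes with a second probe set of its own. That dimmer set read 9.63 and 9.68 in WT, against 9.67 and 9.75 in Flt3 KO, overlapped between the genotypes and differed by 0.056 (SE 0.060).

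Replicate spread can be set directly against these differences. For 6 of the 9 genes, those whose groups did not overlap, the genotype difference exceeded the larger gap between replicates of a genotype. It did so for 35.3% of all genes, and the share among genes of similar brightness was not computed. The 95% interval of the difference lay inside a 1.5-fold change in either direction (0.58 on the log2 scale) for all 9 genes, as it did for 93.8% of all genes. The farthest end was that of Pik3cb, whose interval ran from 0.0026 to 0.33, or up to 1.25-fold. The Akt2 interval, 0.017 to 0.29, also left out 0; these intervals are not adjusted for the number of genes. With 1 array left out the difference moved by over 1.5 times for 5 of the 9 genes, those for which such values are given above, and for Pik3ca, Pik3cd, Akt1 and Akt2 it did not. Another scaling moved the small differences as well, with their signs kept. Under quantile normalization and under centring of the arrays, respectively, Pik3ca differed by −0.0041 and −0.087, Pik3cd by 0.097 and 0.030, Pik3cg by 0.15 and 0.066, Pik3r5 by 0.12 and 0.043 and Inpp5d by 0.066 and 0.0033. At its own SE, a gene of this group would have needed a difference of 0.25 (Pik3cd) to 0.43 (Pik3r5) to pass the threshold, and the smallest absolute difference among all 476 genes that passed was 0.23. Exact permutation of 2 arrays against 2 gives no two-sided p below 0.333 for any gene alone, and each limma p rests on variance shared between genes.

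**Figure D2:**
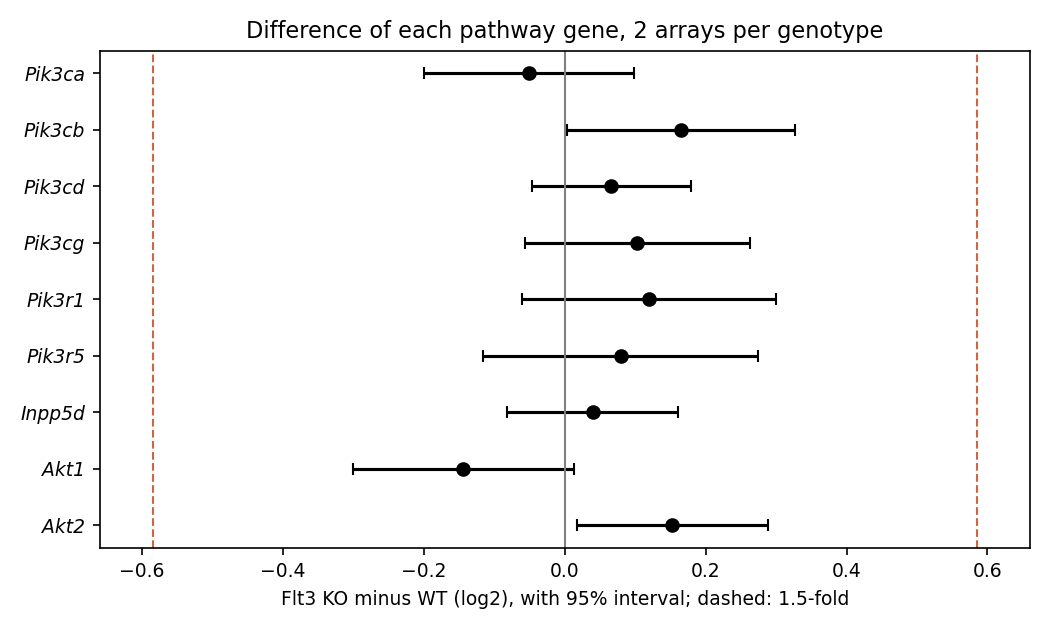
Flt3 KO minus WT difference of each of the 9 genes on the log2 scale with limma's 95% interval (2 arrays per genotype); dashed lines mark a 1.5-fold change either way. All 9 intervals end inside the dashed lines, and those of Pik3cb and Akt2 leave out 0.

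Ratios of related genes within an array do not depend on a constant factor applied to that array. Comparing such a ratio between genotypes cancels fixed differences between probe sets. Such a comparison equals the difference of the first gene minus that of the second, so it is not evidence apart from the values above. For genes with differences of opposite sign, as Akt2 and Akt1 and as Pik3cb and Pik3ca, it exceeds either difference. Quantile normalization is not a constant factor, and under it the genotype difference of the Akt2 to Akt1 ratio was 0.28. The log2 ratio of Akt2 to Akt1 signal was 1.67 and 1.84 in the WT arrays, against 2.05 and 2.06 in the Flt3 KO arrays. Both Flt3 KO ratios were higher, by 0.30 on average, beyond the gap of 0.16 between the WT arrays (exact two-sided permutation p = 0.333, the smallest that 2 against 2 arrays allow). With the second Akt2 probe set, a choice made after its values were seen, the ratio was 1.29 and 1.41 in WT, against 1.54 and 1.56 in Flt3 KO, a difference of 0.20. With the brighter set the difference ranged from 0.22 without WT replicate 1 to 0.38 without WT replicate 2.

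The log2 ratio of Pik3cb to Pik3ca was 0.50 and 0.40 in WT, against 0.66 and 0.67 in Flt3 KO. The Flt3 KO ratios were again both higher, by 0.22 against a largest replicate gap of 0.11 (exact permutation p = 0.333). The ratio of the leukocyte subunits Pik3cg to Pik3cd differed by 0.036, less than its replicate gap of 0.14, and that of the regulatory subunits Pik3r5 to Pik3r1 by −0.041, against a gap of 0.37 (exact permutation p = 0.667 and 1). Their groups overlapped, and both differences changed sign when single arrays were left out. These 4 pairs were the only ones computed, and with a smallest possible p of 0.333 none could pass a threshold. The share of other gene pairs whose ratios do not overlap between the genotypes was not computed.

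**Figure D3:**
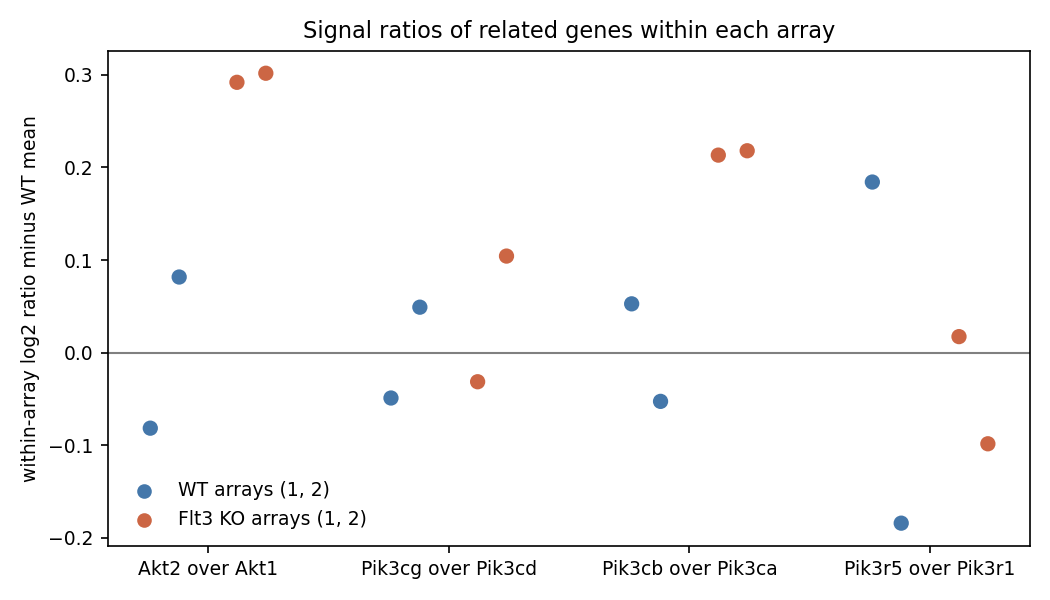
Log2 signal ratio of 4 pairs of related genes within each array, as the distance from the WT mean of that pair (WT arrays in blue and Flt3 KO arrays in orange, replicates 1 and 2 from left to right). The Flt3 KO ratios of Akt2 to Akt1 and of Pik3cb to Pik3ca lie above both WT ratios, by 0.30 and 0.22 on average, whereas the other pairs overlap.

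The gap between the Flt3 KO arrays was 0.0013 to 0.11 over the 9 genes and that between the WT arrays 0.033 to 0.20. Of 24 measured markers of monocytes and macrophages, 22 had a difference above 0 and 6 passed the threshold, all higher in Flt3 KO (Ccr2, Fn1, Cx3cr1, Cd14, Lyz2 and Lyz1, the last pair near-identical paralogs that can share probe signal), and the summed intensity of the 24 was 6370 and 5753 in WT, against 6977 and 9177 in Flt3 KO. No marker was at 0, and 2 of the 24 lay below the median of all genes in both genotypes. The 9 PI3K and AKT genes are expressed by many leukocytes, and the part of such cells in their values was not tested. Without Flt3 KO replicate 2 the median difference of the 9 genes was 0.063, and without Flt3 KO replicate 1 it was 0.088. In bulk samples a change in the share of a cell type and a change in RNA per cell cannot be told apart. The pDC identity list moved the other way, with 11 of 20 measured genes lower, none higher and a median of −0.27. Over all genes 1.31% passed as lower and 1.08% as higher, and 49.6% had a difference above 0. Among the genes as bright as the 9, 5.86% passed in either direction and 34.7% were higher in Flt3 KO. Many pDC identity genes were brighter still, and the shares at their brightness were not computed. B cell markers (0 of 13), T cell markers (Cd8b1 of 12, lower) and NK cell markers (Klrk1 of 12, higher) gave at most 1 gene past the threshold. So did neutrophil markers (0 of 10) and conventional dendritic cell markers (Flt3 itself of 14). At an unadjusted limma p under 0.05 these lists had 3, 2, 3, 2 and 4 genes higher and 3, 3, 0, 1 and 1 lower, in the same order. The 4 conventional dendritic cell genes higher at that level, named after their values were seen, were Zbtb46 (0.48), Cd24a (0.48, adjusted p = 0.055), Cd209a (0.24) and Itgax (0.22).

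The wider pathway was described with 8 lists of 174 genes, of which 164 were measured. In limma 7 passed the threshold, 4 higher and 3 lower (over all genes 1.08% were higher and 1.31% lower). The 7 genes were 4.27% of the 164, beside 2.39% of all genes and 5.86% of the genes as bright as the 9 described above. The median difference of the 164 was 0.0010. The 7 genes lay in the lists of PIP3-binding and related proteins, mTOR regulators and genes known as FOXO targets. The lists of kinase subunits, phosphatases, AKT regulators, adaptors and AKT substrates had none past the threshold.

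None of 8 other PI3K subunit genes passed in limma, and none had an unadjusted p under 0.05. The class IA regulatory gene Pik3r2, encoding p85β, had the lowest p, with 6.95 and 6.81 in WT, against 6.67 and 6.70 in Flt3 KO and a difference of −0.20 (limma adjusted p = 0.29), or −0.13 without WT replicate 1. Pik3c3, the class III kinase of autophagy and endosomal sorting, differed by 0.14 and its partner gene Pik3r4 by −0.11 (−0.066 under quantile normalization). The median was 0.024, with 5 genes above 0 and 3 below.

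Among 19 other inositol lipid phosphatases 0 passed in limma, with 5 at an unadjusted p under 0.05, and the median was −0.067. Unadjusted counts in this and the following lists can be set beside 17.1% of all genes, 29.8% of genes as bright as the 9 and 33.5% of the 164 pathway genes. The type II 5-phosphatase gene Inpp5b came closest, with 8.13 and 8.10 in WT, against 7.84 and 7.84 in Flt3 KO (difference −0.27, SE 0.064, limma adjusted p = 0.090), with an adjusted p of 0.048 once dim genes were filtered out and 0.056 to 0.42 under the other alternatives. Inpp4b, whose product removes the 4-phosphate of PI(3,4)P2, differed by −0.29 and the synaptojanin gene Synj1 by 0.24, neither past the threshold. Of 15 other AKT-related kinases and regulators 0 passed, with 5 at an unadjusted p under 0.05 in limma. Phlpp2, whose product dephosphorylates AKT, differed by −0.26, the AKT-like kinase gene Sgk1 by 0.33 and Pik3ip1, a membrane inhibitor of PI3K, by −0.21. Themis2, which was placed in this list but is not known chiefly as an AKT regulator, differed by 0.32. With 1 array left out these were as small as −0.16 for Phlpp2 (without WT replicate 2), 0.19 for both Sgk1 and Themis2 (without Flt3 KO replicate 2) and −0.14 for Pik3ip1 (without WT replicate 1). Pdpk1, which encodes the kinase that phosphorylates the AKT activation loop, differed by −0.043 (limma adjusted p = 0.84), and was −0.15 without WT replicate 1, 0.066 without WT replicate 2 and −0.022 without Flt3 KO replicate 2.

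Adaptors that bring PI3K to receptors had 0 of 21 past the threshold in limma and 6 at an unadjusted p under 0.05, with a median of 0.033. Pik3ap1 encodes BCAP, an adaptor that links Toll-like and B cell receptors to PI3K. It read 10.80 and 10.77 in WT, against 10.61 and 10.63 in Flt3 KO. The replicates were close and did not overlap, but the difference was −0.17 (SE 0.045, limma adjusted p = 0.12). Hcst, the DAP10 adaptor gene of NKG2D, differed by −0.28, and Ptpn11, the gene of the phosphatase SHP2, by 0.17.

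The list of PIP3-binding kinases, exchange factors and related proteins held the lower genes past the threshold, 3 of 24, with 0 higher. Its median was −0.032, and at an unadjusted limma p under 0.05 it had 6 higher and 7 lower. Cyth4, a member of the cytohesin exchange factors for ARF GTPases, had 11.21 and 11.20 in WT, against 10.93 and 10.88 in Flt3 KO and fell by 0.30 (SE 0.044, limma adjusted p = 0.021). Plekha2, which encodes the PI(3,4)P2-binding protein TAPP2, had 9.42 and 9.43 in WT, against 9.13 and 9.11 in Flt3 KO and fell by 0.31 (SE 0.054, limma adjusted p = 0.038). Arap2, an ARF GTPase-activating protein gene, had 6.93 and 6.93 in WT, against 6.54 and 6.53 in Flt3 KO and fell by 0.40 (SE 0.076, limma adjusted p = 0.049). In all 3 the WT arrays lay within 0.01 of each other and well clear of the Flt3 KO arrays.

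Of 35 genes of the TSC and mTOR complexes and their regulators, 2 rose and 0 fell past the threshold, and the median was −0.057. At an unadjusted limma p under 0.05 there were 5 higher and 6 lower. Castor2, from the family of arginine sensors upstream of mTORC1, had 7.86 and 7.71 in WT, against 8.19 and 8.24 in Flt3 KO and rose by 0.43 (SE 0.075, limma adjusted p = 0.038). Prr5l, which encodes an mTORC2-associated protein, had 8.17 and 8.27 in WT, against 8.59 and 8.77 in Flt3 KO and rose by 0.46 (SE 0.081, limma adjusted p = 0.038). The core genes were close to 0: Mtor differed by −0.071, Tsc1 by 0.014 and Tsc2 by −0.079, with limma adjusted p of 0.61, 0.95 and 0.57. Under quantile normalization Mtor was at −0.021 and Tsc2 at −0.034, and under centring Mtor was at −0.11. The Tsc1 sign turned under centring of the arrays and in 2 of the 4 fits that left out an array.

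FOXO factors and other AKT substrates had 0 of 17 past the threshold in limma, 4 at an unadjusted p under 0.05 and a median of 0.023. Foxo1 differed by 0.16 (limma adjusted p = 0.35) and Foxo3 by −0.12 (limma adjusted p = 0.48). Foxo1 was at 0.097 without WT replicate 1, and Foxo3 at −0.19 without WT replicate 1, −0.043 without WT replicate 2, −0.066 without Flt3 KO replicate 1 and −0.075 under quantile normalization. Cdkn1b, the gene of the cell cycle inhibitor p27, is both an AKT substrate and a known FOXO target. Its values were 10.63 and 10.76 in WT, against 10.95 and 11.04 in Flt3 KO, and its difference of 0.30 (SE 0.061) did not pass at a limma adjusted p of 0.057. The adjusted p ranged from 0.028 to 0.38 over the alternatives: it was 0.028 to 0.039 under quantile normalization, the filter on dim genes, robust variance and the replicate block, 0.20 without the intensity trend, 0.11 with all probe sets tested together and 0.21 to 0.38 with 1 array left out. With its probe sets averaged the Cdkn1b difference was 0.18 (limma adjusted p = 0.20).

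Among 29 genes known as FOXO targets 2 rose and 0 fell past the threshold, and the median was −0.0014. At an unadjusted limma p under 0.05 this list had 6 higher and 7 lower. Klf4, the gene of a Kruppel-like transcription factor, had 8.09 and 7.99 in WT, against 8.47 and 8.49 in Flt3 KO and rose by 0.44 (SE 0.067, limma adjusted p = 0.022). The repressor gene Bcl6 had 7.84 and 7.83 in WT, against 8.23 and 8.27 in Flt3 KO and rose by 0.42 (SE 0.064, limma adjusted p = 0.022). Both also respond to signals other than FOXO. Klf4 is a gene of monocytes as well. Of the 24 measured monocyte and macrophage markers, 17 lay above their WT mean on Flt3 KO replicate 1 and 22 on Flt3 KO replicate 2. Those higher on both arrays included Ccr2 (9.16 and 9.19), Fn1 (6.56 and 6.44) and Lyz2 (8.06 and 8.04), with WT means of 8.48, 5.62 and 7.54. Cd68 was lower on both (10.08 and 10.12, with a WT mean of 10.21). So was Fcgr1 (5.61 and 5.67, with a WT mean of 5.69). Adgre1, Spic, Slc40a1, Cd5l and Timd4 lay at or below their WT mean on Flt3 KO replicate 1 and above it only on replicate 2. For Cd5l the values were 7.47 and 8.45, with a WT mean of 7.59. Immediate early and heat shock genes had 2 of 16 higher (Ier3 and Dusp1, beside 1.08% of all genes), none lower and a median of 0.18. Their summed intensities were 19928 and 18966 in WT, against 21256 and 21485 in Flt3 KO. The part of monocytes and of these immediate early and heat shock genes in the Klf4 and Bcl6 values was not tested. All 7 calls were lost in each of the 4 fits that left out 1 array, without the intensity trend, and with all 30177 probe sets tested together; that of Arap2 also was with 16 added to each intensity (adjusted p = 0.051), and those of Plekha2, Arap2 and Castor2 under the replicate block (adjusted p = 0.068, 0.082 and 0.056).

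**Figure D4:**
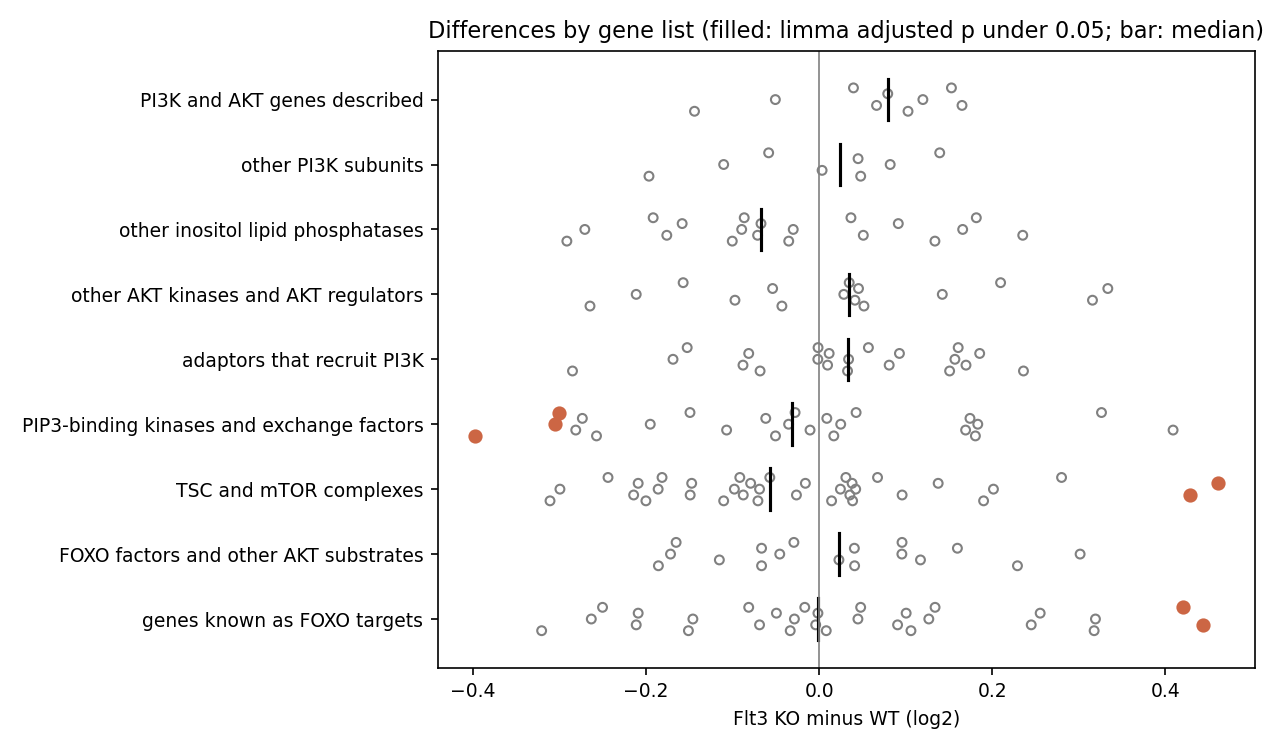
Flt3 KO minus WT difference on the log2 scale for the 9 PI3K and AKT genes (top row) and the measured genes of the 8 wider pathway lists, with 1 point per gene, a bar at the list's median and filled points for a limma adjusted p under 0.05. The filled points are Cyth4, Plekha2 and Arap2 on the left and Castor2, Prr5l, Klf4 and Bcl6 on the right, and the top row lies between −0.14 and 0.17.

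Genes with the most similar pattern over the 4 arrays were found for Akt2 and Pik3cb, the genes of the 9 with the lowest p, as the smallest Euclidean distance between log2 values centred on each gene's mean. For Akt2 these were Git2 (distance 0.012), Pomgnt2 (0.014) and Gm10190 (0.015). For Pik3cb they were Olfr1413 (0.0050), Ap3b2 (0.0087) and Olfr1471 (0.012). None of the 6 passed the threshold in limma. Within a distance of 0.05 there were 145 genes for Akt2 and 86 for Pik3cb.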

How the data were processed

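Expression was measured in 4 pDC samples, 2 WT and 2 Flt3 KO, on whole-transcript GeneChip arrays with biotin-labelled RNA, per the labels. The deposited values are intensities on a linear scale for 30177 probe sets, as the authors processed them; background correction, summarisation, scaling and genome build: not given in the sources used here. Median intensities were close, at 55.1 and 55.3 in WT, against 57.2 and 56.2 in Flt3 KO. Upper quartiles went the other way, at 214.6 and 212.8 in WT, against 206.2 and 209.5 in Flt3 KO. Close medians therefore do not show a common scale. Names came from the platform annotation: 21789 had 1 gene symbol, 1621 several and 6767 none. The brightest probe set of each of 19938 genes was kept; 21698 probe sets had an identifier in the RefSeq gene table of GRCm38.p6, used for names only.

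Intensities were taken as log2 without a constant or filter and the genotypes were tested in limma 3.58.1 under R 4.3.3 (lmFit, eBayes with intensity trend, no covariate), with Benjamini-Hochberg adjustment over all genes, a threshold of 0.05 and 95% intervals; the fit was tested on simulated data. The number of arrays limits the precision. Alternatives were quantile normalization, median centring, 16 added to intensities, a filter on dim genes (above the median of all genes in at least 2 arrays), no trend, robust variance, averaged probe sets, all probe sets together, the replicate block and each array left out.

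Genes named were the 9 members, Flt3, of each pathway list those past the threshold (up to 6) or else the 3 with the lowest p, some core pathway genes always, and the 3 nearest patterns of 2 members; markers that passed were named after their values were seen. Members and lists were chosen with earlier results of these data known. Pathway list genes without a probe set of their own (10) were not analysed here.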

Additional observations from a re-analysis of the deposited data

How the results depend on the processing

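Under all 13 alternatives 0 of the 9 genes passed the threshold in limma, the lowest adjusted p being 0.14 (Akt2 under quantile normalization), with 0 to 2 at an unadjusted p under 0.05. Their median difference moved to 0.12 under quantile normalization and lay between 0.043 and 0.088 in the others. The count over all genes was 751 of 10080 with dim genes filtered out, 108 without the intensity trend, 219 with all probe sets together and 0 to 54 with 1 array left out, where 1 residual degree of freedom remained; it was 660 under centring (217 higher and 443 lower, against 215 and 261). The count over the pathway lists, 7, was 0 without the trend, with all probe sets together and in each fit without 1 array. The Akt2 to Akt1 ratio moved to 0.20 with the second Akt2 probe set. Signs turned for Tsc1 under centring (−0.022), and with 1 array left out for Pik3r5 (−0.019 to 0.18), Inpp5d (−0.0092 to 0.088), Tsc1 (−0.028 to 0.056) and Pdpk1 (−0.15 to 0.066); the cause was not tested. The labels do not say whether replicate numbers pair the samples. Deviations by replicate number correlated across all genes with r = −0.017, but that correlation cannot show that the samples were unpaired. The heat shock genes Hspa1a, Hspa8, Dnajb1 and Hsph1 were each higher in replicate 1 of both genotypes (Hspa1a 8.51 and 7.52 in WT, 8.73 and 7.49 in Flt3 KO). The replicate block gave 375 calls over all genes, 0 of the 9 and 5 over the pathway lists.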
